A study of Homo sapiens with 96 samples.

Results

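The exons described here are microexons, taken as cassette exons of 27 nt or less in poly(A)-RNA seq of A549 cells. A549 cells are a long-used line that came from a lung adenocarcinoma. The members were the skipped exon (SE) events whose alternative exon spanned at most 27 nt, in 8 tables of splicing events that each set an inhibitor group against DMSO. They came to 1488 of 164617 SE events, or 932 of 94227 distinct exons, and lay in 825 of 14097 genes. An event is 1 exon with its 2 flanking exons, and 325 of the microexons occurred with more than 1 pair of neighbors. The 30 libraries formed 10 groups of 3. Groups were treated for 2, 4, or 7 days with the PRMT5 inhibitor GSK591 at 1 µM or with MS023, an inhibitor of Type I PRMTs, at the same dose. Both drugs together (co-treatment, GSK591+MS023, 1 µM of each) were given for 2 and 4 days. The controls had 0.01% DMSO, for 4 days in 1 group and 7 days in the other. No group carried a genetic change. PRMTs are enzymes that methylate arginines in proteins, many of them RNA-binding proteins, and PRMT5 and the Type I enzymes leave different dimethyl marks. The inhibitor libraries of 2 and 4 days were both set against DMSO of 4 days, and the 7-day ones against DMSO of 7 days, so comparisons with 1 control share its libraries. At 2 days, the effect of an inhibitor and any change of the controls between 2 and 4 days cannot be told apart.

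A microexon is so short that proteins bound at its own splice sites have little room beside each other, and its recognition leans on enhancer proteins that bind the flanking introns. Microexons are best known from neurons, where SRRM4 and related proteins raise their inclusion and PTBP1 lowers it. In other tissues, among them epithelia and muscle, RBFOX, QKI, MBNL, and ESRP proteins set the inclusion of part of them. When the length is a multiple of 3, a microexon in a coding region adds or removes a few amino acids and keeps the reading frame, often at the surface of a protein that takes part in vesicle traffic, adhesion, or the cytoskeleton.

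The reference sequences below belong to microexons on which the results turn, and they are shown so that the exon and the intron bases that define it can be read beside the values. They come from GRCh37 (hg19), the build of the tables. Each runs 5′ to 3′ on the strand of the gene, with 30 intron bases before the exon and 12 after it in lower case and the whole exon in capitals. The first group had lower inclusion with GSK591 or co-treatment.
SENP6, 18 nt exon (chr6:76350403-76350420, plus strand): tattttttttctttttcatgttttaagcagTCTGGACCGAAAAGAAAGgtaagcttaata
SENP6, 21 nt exon (chr6:76350400-76350420, plus strand): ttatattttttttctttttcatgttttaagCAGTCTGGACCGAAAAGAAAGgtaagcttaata
MLLT4, 21 nt exon (chr6:168314083-168314103, plus strand): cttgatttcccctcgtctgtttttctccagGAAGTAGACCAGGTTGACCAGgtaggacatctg
TEAD1, 12 nt exon (chr11:12900436-12900447, plus strand): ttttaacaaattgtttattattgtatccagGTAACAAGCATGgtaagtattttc
DNM1, 12 nt exon (chr9:131010203-131010214, plus strand): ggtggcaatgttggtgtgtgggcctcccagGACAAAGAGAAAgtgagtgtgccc
NTAN1, 22 nt exon (chr16:15141935-15141956, minus strand): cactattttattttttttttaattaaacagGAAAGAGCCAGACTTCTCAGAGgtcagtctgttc
CPNE7, 27 nt exon (chr16:89653964-89653990, plus strand): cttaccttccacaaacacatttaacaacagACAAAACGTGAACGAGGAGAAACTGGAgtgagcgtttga
MTSS1L, 9 nt exon (chr16:70713218-70713226, minus strand): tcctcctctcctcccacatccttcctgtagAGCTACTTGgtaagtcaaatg

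The second group had higher inclusion with at least 1 treatment.
IL18, 12 nt exon (chr11:112024315-112024326, minus strand): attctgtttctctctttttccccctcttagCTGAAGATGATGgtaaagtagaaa
DPH7, 27 nt exon (chr9:140472029-140472055, minus strand): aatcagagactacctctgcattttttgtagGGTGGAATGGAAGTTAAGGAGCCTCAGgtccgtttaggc
PAPSS2, 15 nt exon (chr10:89481513-89481527, plus strand): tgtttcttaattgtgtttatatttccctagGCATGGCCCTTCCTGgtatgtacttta
CPEB2, 24 nt exon (chr4:15042088-15042111, plus strand): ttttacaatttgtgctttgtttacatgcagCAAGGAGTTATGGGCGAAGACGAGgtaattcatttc
FMNL1, 18 nt exon (chr17:43312199-43312216, plus strand): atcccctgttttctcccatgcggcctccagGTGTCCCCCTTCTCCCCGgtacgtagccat

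All of these exons lie between AG and GT ends. Both SENP6 exons end at the same base and start 3 nt apart, so they share the reads that skip them and are not independent of each other.

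The tables give inclusion reads and skipping reads for every event and library. A microexon is shorter than a sequenced read, so its inclusion reads span a junction. Ψ is the share of inclusion after both counts are scaled to the effective lengths of their forms, so 1 means that the exon was always included. ΔΨ is the mean Ψ of the inhibitor libraries minus that of the DMSO libraries. Counts summed over SE events came to between 45420420 and 97845379 per library, and over the microexon events to between 237109 and 417181. Events can share reads, so a read can be counted more than once, and these sums are not numbers of sequenced reads. The highest sums were in the DMSO group that enters the most tables. The range thus also reflects which events were listed and need not show how deeply a library was sequenced. The chi-square per degree of freedom between replicates was 1.78 to 2.82, so they varied more than sampling alone gives. Replicates carry no number in the tables, and the letters a, b, and c give a library's position there. Nothing in the tables says that the 3 libraries of a group came from separate cultures, and p-values measure only the spread between these libraries. Of the genes listed as marks of epithelia, KRT8 carried 669837 to 1424337 reads per group on its SE events, KRT18 0 to 470609, CDH1 853 to 2383, and EPCAM 0 to 494, while KRT19 and CLDN4 had no SE event in the tables. Of the neuronal genes listed, SRRM4, NEFL, STMN2, and DCX had none. MAP2 carried 612 to 8647 reads per group, SNAP25 466 to 7890, RBFOX3 219 to 1833, SYT1 225 to 516, and SRRM3 0 to 42. These are counts summed over splicing events and no measure of expression. An event that was not listed for a group added 0 to its sum. The ranges thus also reflect which events were listed, and a low end of 0 need not mean that reads were absent.

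Testing an event required 10 or more reads in each library compared and a read of both forms. Logistic models of the quasi-binomial kind were fitted, with dispersions moderated by limma and Benjamini-Hochberg adjustment over all SE events tested in that comparison. An event with an adjusted p under 0.05 was called. Of the 932 microexons 211 were never tested, 721 were tested in at least 1 comparison, and 380 in all 8. Such a test of 3 libraries against 3 borrows the spread from all events. An exact permutation test of 1 exon could not fall below p = 0.1.

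The lengths ran from 2 to 27 nt, and 570 of 932 exons (61.2%) had a length that was a multiple of 3, against 39.7% of the 93295 exons over 27 nt. The most frequent lengths were 27 nt with 150 exons and 24 nt with 110, and 14 exons had only 3 nt. Of the 676 microexon events tested with GSK591 at 4 days, 21.9% had a mean Ψ between 0.1 and 0.9 in 4-day DMSO, against 11.3% of longer exons. A further 30.9% of the microexon events lay under 0.1, against 8.70% of longer exons. Inclusion also differed with the reading frame. The median Ψ in 4-day DMSO was 0.444 for tested microexon events of a multiple of 3 and 0.972 for the others, whereas both medians were 0.992 or 0.993 among longer exons. Microexons that keep the reading frame were thus more often skipped in DMSO-treated cells, by these medians.

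**Figure D1:**
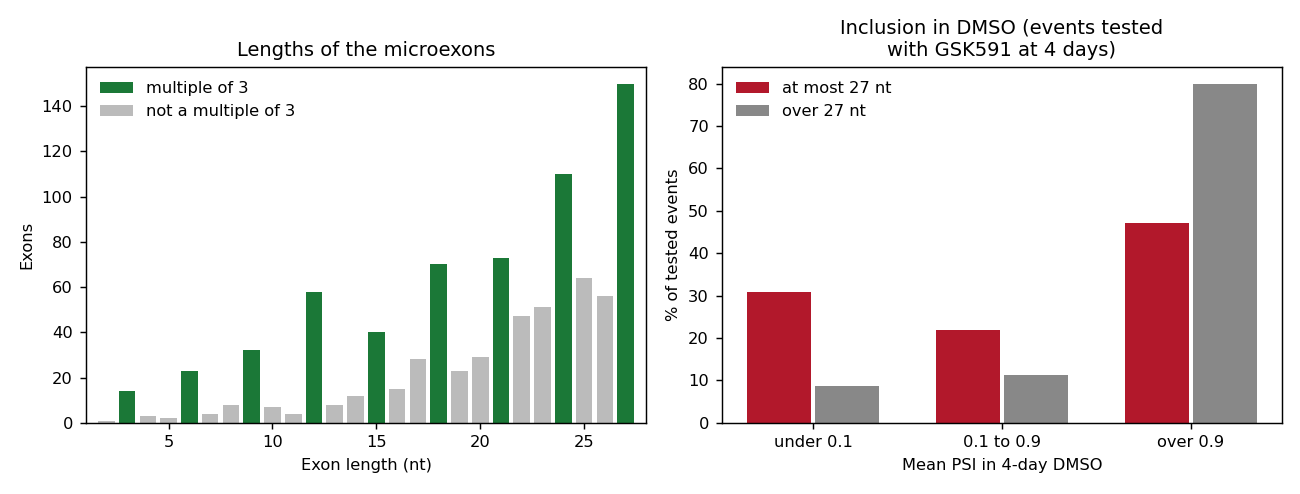
Left, the number of microexons at each exon length in nt, with multiples of 3 in green and other lengths in gray. Right, the share of tested events in 3 classes of mean Ψ (PSI) in 4-day DMSO, for exons of at most 27 nt (red) and longer exons (gray). Green bars stand above their neighbors with 150 exons at 27 nt, and 30.9% of the tested microexon events lie under 0.1 against 8.70% of longer ones.

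Each inhibitor changed the inclusion of microexons, and co-treatment changed the most. At 2 days, 56 of 642 tested microexon events were called with GSK591 (8.72%, against 4.36% of all SE events tested), 19 of 676 with MS023 (2.81%, against 1.49%), and 105 of 652 with co-treatment (16.1%, against 9.48%). At 4 days the counts were 94 of 676 with GSK591 (13.9%, against 6.96%), 35 of 665 with MS023 (5.26%, against 1.89%), and 150 of 694 with co-treatment (21.6%, against 10.8%). After 7 days 53 of 620 were called with GSK591 (8.55%, against 4.81%) and 45 of 606 with MS023 (7.43%, against 2.39%). The 7-day and 4-day DMSO libraries, set against each other, gave 9 of 592 (background 1.33%). In every one of the 8 comparisons with DMSO the share of microexon events called was above the share of all SE events, but no test was made of this difference.

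These counts depended on the test and on single libraries. The share of all SE events called under each alternative below is not given. Whether microexon events stayed above it cannot be read from these counts. Without the trend in the dispersion of the test, the 2-day counts of microexon events were 85 (GSK591) and 39 (MS023). MS023 at 4 days then had 65 calls, GSK591 and MS023 at 7 days 105 and 75, and DMSO 25. When log2 odds of inclusion were tested by limma, 39 and 69 microexon events were called with co-treatment at 2 and 4 days, 14 with GSK591 at 4 days, and 2 with GSK591 at 7 days. That test called 0 with GSK591 at 2 days, where 100 microexon events had an unadjusted p under 0.05. For MS023 it called 0 on each day, where 50, 92, and 80 had such a p. Of the 159 calls of exons described below against DMSO, 21 passed it. These were, with co-treatment on both days, ULK3, MLLT4, TEAD1, PVR, IL18, and FAM120A, with co-treatment on 1 day the 18 nt exon of SENP6, DPH7, CPEB2, PAPSS2, NTAN1, and SNX14, and with GSK591 at 4 days ULK3, MLLT4, and the 18 nt exon of SENP6. Without 4-day DMSO library a the count with GSK591 at 2 days was 37, and that with MS023 at 2 days was 12. The latter was also 12 without MS023 library a and 9 without MS023 library c. The count with co-treatment at 4 days was 94 without co-treatment library a. At 7 days the count with GSK591 was 30 and 32 without DMSO libraries a and c, and that with MS023 was 28, 27, 27, and 28 without DMSO library b and MS023 libraries a, b, and c. The DMSO count was 3 without 7-day library a and 1 without 7-day library b.

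The direction of the calls differed between the inhibitors. At 2 days 16 microexon events were higher and 40 lower with GSK591 (0.73% and 3.63% of all SE events tested were called higher and lower). At 4 days these were 30 and 64 (1.53% and 5.43%), and at 7 days 23 and 30 (1.93% and 2.88%). With MS023 most were higher, with 12 higher and 7 lower at 2 days (0.392% and 1.1%), 25 and 10 at 4 days (0.619% and 1.27%), and 34 and 11 at 7 days (1.19% and 1.19%). Co-treatment gave 38 higher and 67 lower at 2 days (1.48% and 8.0%) and 53 and 97 at 4 days (2.87% and 7.98%). With MS023 at 4 days 71.4% of the called microexon events were higher, as were 76.5% of those of 28 to 50 nt, 33.8% of those of 51 to 150 nt, and 22.7% of longer ones, so this split was shared with the next longer exons. The difference in direction between inhibitors was tested only exon by exon, in the direct comparisons given further on.

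Length and starting inclusion were also set beside the calls. Among exons of 28 to 50 nt, 8.96% were called with GSK591 at 4 days, and 6.93% of those of 51 to 150 nt and 6.52% of longer ones, against 13.9% of the microexon events. Just inside the limit, 23 of 207 events of 25 to 27 nt were called, and just outside it 16 of 228 of 28 to 30 nt. In co-treatment at 4 days the same shares were 40 of 208 and 35 of 241. Within the microexons, 13 of 61 events of at most 9 nt were called there (21.3%), 31 of 97 of 10 to 15 nt (32.0%), 29 of 160 of 16 to 21 nt (18.1%), and 77 of 376 of 22 to 27 nt (20.5%), beside 10.8% of all SE events. When only events with a DMSO Ψ between 0.1 and 0.9 were counted, the share called with GSK591 at 2 days was 13.0% for microexons and 13.2% for longer exons. In that class it was 29.7% against 20.1% with GSK591 at 4 days, 44.2% against 29.4% with co-treatment at 4 days, and 13.6% against 6.82% with MS023 at 4 days. Under a Ψ of 0.1, GSK591 gave lower shares for microexons than for longer exons. These were 4.98% against 6.35% (2 days), 8.61% against 10.9% (4 days), and 3.57% against 8.07% (7 days). With MS023 they were 1.35% against 1.79%, 4.04% against 3.03%, and 4.19% against 4.28%. Co-treatment gave 12.7% against 11.9% (2 days) and 18.6% against 16.7% (4 days). Over 0.9 microexons had the higher share in all 8 comparisons.

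**Figure D2:**
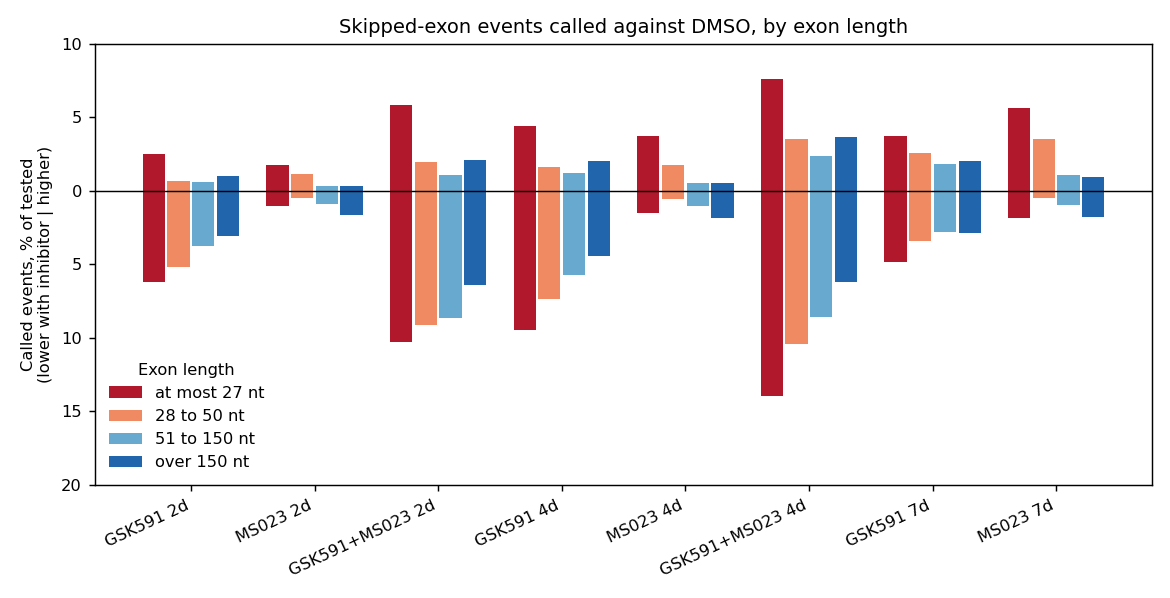
Share of tested SE events called in each of the 8 comparisons with DMSO, in percent, with events of higher inclusion above 0 and events of lower inclusion below it, for 4 classes of exon length. The red bars of the microexons are the tallest of their set above 0 in every comparison, and with co-treatment at 4 days 53 of 694 events were higher and 97 lower.

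Taken by exon, 179 of the 721 microexons tested in any comparison were called in at least 1 of the 8, and 37 in 5 or more. The 179 lay in 174 genes. The same counts over all SE exons were not made, so no background stands beside them. FLNA, PVR, RPS24, and IL18 were called in all 8. The comparisons share their controls, so these counts describe the calls and are no independent repeats. The change of the 37 exons is shown in the map of ΔΨ.

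**Figure D3:**
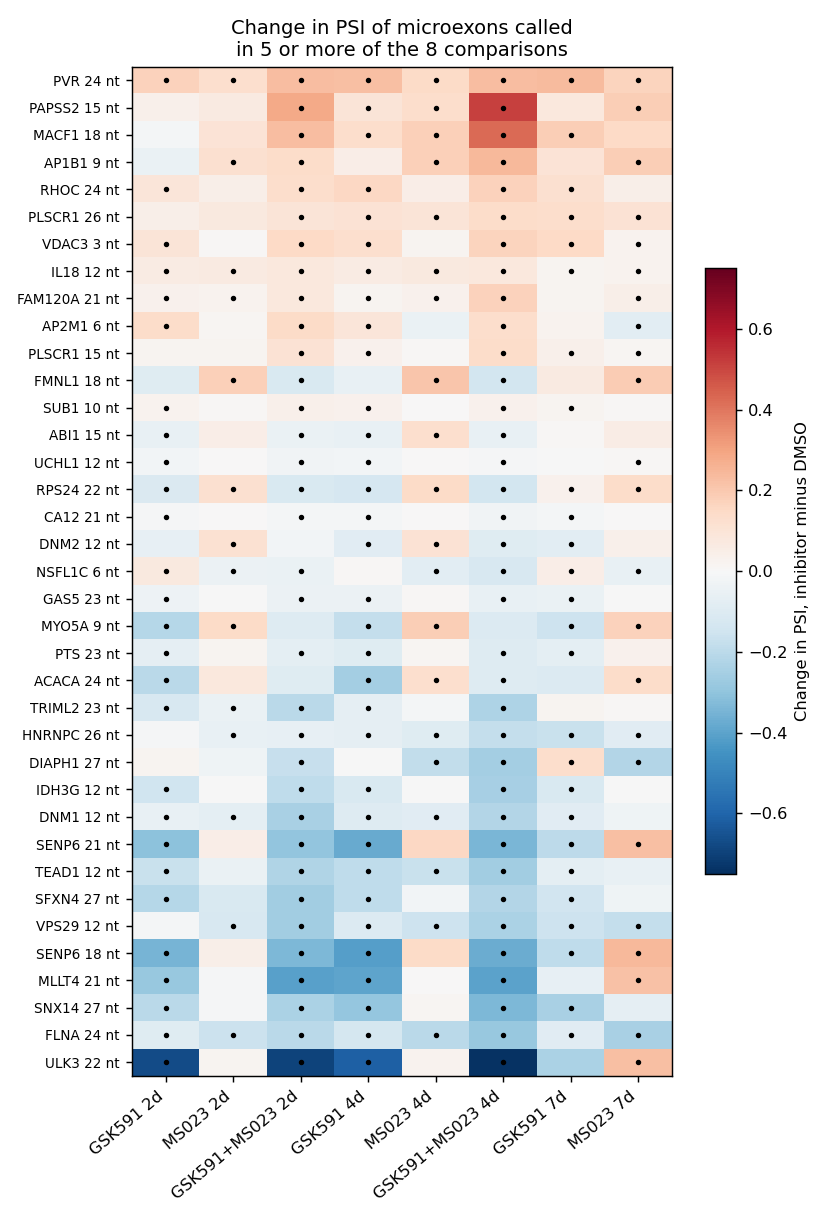
ΔΨ (change in PSI, inhibitor minus DMSO) of the 37 microexons called in 5 or more of the 8 comparisons, in rows ordered by mean change, with the comparisons in columns. Red is higher and blue lower inclusion than in DMSO, and a dot marks a called event. PVR is red in all columns and FLNA is blue in all columns, while ULK3, SENP6, RPS24, and MYO5A are blue with GSK591 at 2 days and red with MS023 at 7 days.

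FLNA encodes filamin A, which crosslinks actin filaments, and its 24 nt exon (chrX:153585619-153585642, minus strand) is coding in the GENCODE annotation. Its Ψ was 0.676, 0.683, and 0.683 in libraries a, b, and c of 4-day DMSO. It was 0.551, 0.556, and 0.543 with GSK591 at 4 days, 0.452, 0.497, and 0.478 with MS023, and 0.405, 0.398, and 0.386 with co-treatment. None of these groups overlapped, and co-treatment was lowest. Between 2151 and 6962 reads per library lay on the exon at these days, including 2 days, where Ψ was 0.592 ± 0.0213 (SD, n = 3) with GSK591 and 0.520 ± 0.0135 with MS023. Co-treatment differed from GSK591 alone (ΔΨ = -0.154, adjusted p = 5.48e-28) and from MS023 alone (-0.0791, adjusted p = 7.07e-08) at 4 days. At 7 days Ψ was 0.629 ± 0.0291 in DMSO, 0.542 ± 0.0146 with GSK591, and 0.383 ± 0.0438 with MS023. The DMSO libraries of 7 days were themselves lower than those of 4 days by a ΔΨ of -0.0523 (adjusted p = 0.0222).

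PVR is a nectin-like adhesion receptor that immune cells recognize, and its 24 nt exon (chr19:45162010-45162033, plus strand) had higher inclusion with every treatment. Its Ψ was 0.717, 0.699, and 0.732 in 4-day DMSO and 0.912, 0.945, and 0.960 with GSK591 at 4 days. It was 0.878, 0.90, and 0.804 with MS023 and 0.942, 0.935, and 0.960 with co-treatment. All inhibitor libraries lay above all DMSO libraries (ΔΨ = 0.223, 0.144, and 0.229, with adjusted p = 7.7e-11, 0.000202, and 5.7e-07). GSK591 was higher than MS023 at 4 days (difference 0.0783, adjusted p = 0.0136). At 2 and 7 days that difference was 0.0499 and 0.0704 and did not pass the test. With MS023, the call at 4 days held with each library left out. Those at 2 and 7 days did not, with an adjusted p of 0.135 at 2 days without MS023 library c and 0.0507 without library a, and 0.235 at 7 days without library c and 0.0513 without library b. In these fits ΔΨ was 0.106 and 0.123 at 2 days and 0.131 and 0.177 at 7 days, against 0.125 and 0.165 with all libraries.

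The cytokine gene IL18 had a 12 nt exon that was nearly always included. Its Ψ was 0.914, 0.936, and 0.907 in 4-day DMSO, 0.974, 0.978, and 0.986 with GSK591 at 4 days, and 0.997, 0.989, and 0.993 with MS023. With co-treatment it was 1.0, 0.996, and 0.997, where library a had no skipping read beside 1336 inclusion reads, which allows a Ψ as low as 0.998 (3 reads, counting error only). Every treated library was above every DMSO library (ΔΨ = 0.0601, 0.0739, and 0.0784). The 7-day DMSO libraries were also higher than those of 4 days (0.970 ± 0.0140 against 0.919 ± 0.0149, adjusted p = 0.019). At 7 days ΔΨ was only 0.0200 with GSK591 and 0.0267 with MS023, and both calls were lost without DMSO library c (adjusted p = 0.358 and 0.203), among other libraries.

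VPS29 is a subunit of retromer, which returns receptors from endosomes, and its 12 nt exon (chr12:110937340-110937351, minus strand) is coding in the annotation and lies in a UTR of some transcripts. Its Ψ was 0.455, 0.403, and 0.422 in 4-day DMSO, 0.338, 0.298, and 0.282 with MS023 at 2 days, and 0.165, 0.137, and 0.189 with co-treatment. With GSK591 at 2 days it was 0.401, 0.404, and 0.438, which overlapped DMSO. Co-treatment was lower than MS023 alone (difference -0.143, adjusted p = 2.97e-06) and GSK591 alone (-0.251, adjusted p = 1.34e-12). At 7 days both inhibitors were lower than DMSO, with 0.313 ± 0.0392 and 0.291 ± 0.0153 against 0.468 ± 0.00992. The call with MS023 at 2 days was lost without MS023 library c (adjusted p = 0.0868) or DMSO library a (0.0591). That with GSK591 at 4 days was lost without DMSO library a (0.0880) or GSK591 library b or c.

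DNM1 is the dynamin best known for pinching off synaptic vesicles, and DNM2 is its form in most tissues. Each had a 12 nt microexon, at different places in the genome. These were not their only microexons, since 3 microexons of DNM1 and DNM2 were called with GSK591 at 7 days, all lower. Only the 12 nt exons are described here. The 12 nt exon of DNM1 was mostly included, at 0.867, 0.909, and 0.933 in 4-day DMSO. It was 0.642, 0.672, and 0.672 with co-treatment at 2 days and 0.634, 0.697, and 0.714 at 4 days (ΔΨ = -0.241 and -0.222, adjusted p = 2.21e-27 and 3.66e-25). With 1 inhibitor the change was smaller, at -0.0993 (GSK591) and -0.0862 (MS023) on day 4. The direct test of co-treatment against each of them passed at both days. The call with GSK591 at 2 days (ΔΨ = -0.0555) was lost without any of 4 libraries, with an adjusted p of 0.340 without DMSO library c, and that with MS023 at 2 days (-0.0733) was lost without DMSO library c (0.0706).

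The RNA-binding proteins HNRNPC and FAM120A had microexons that the annotation does not place in the coding region. The 26 nt exon of HNRNPC (chr14:21731470-21731495, minus strand) had a Ψ of 0.828, 0.822, and 0.829 in 4-day DMSO and 0.636, 0.654, and 0.653 with co-treatment at 4 days. At 7 days it was 0.636, 0.656, and 0.664 with GSK591 and 0.737, 0.739, and 0.740 with MS023, against 0.822, 0.823, and 0.818 in DMSO. At that time GSK591 lay lower than MS023 (difference -0.0862, adjusted p = 2.44e-11), whereas at 2 days MS023 was the lower of the pair (0.0473, adjusted p = 2.16e-05). The 21 nt exon of FAM120A (chr9:96292993-96293013, plus strand) was close to 0 in DMSO, with a Ψ of 0.00249, 0.0129, and 0.00717. It was 0.167, 0.192, and 0.173 with co-treatment at 4 days (ΔΨ = 0.170, adjusted p = 1.21e-35), against 0.0283 ± 0.000477 with GSK591 and 0.0413 ± 0.00963 with MS023. Co-treatment was above both (adjusted p = 6.34e-20 and 4.55e-17). The small change with GSK591 at 4 days was not called without DMSO library a (adjusted p = 0.108) or GSK591 library a or c.

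**Figure D4:**
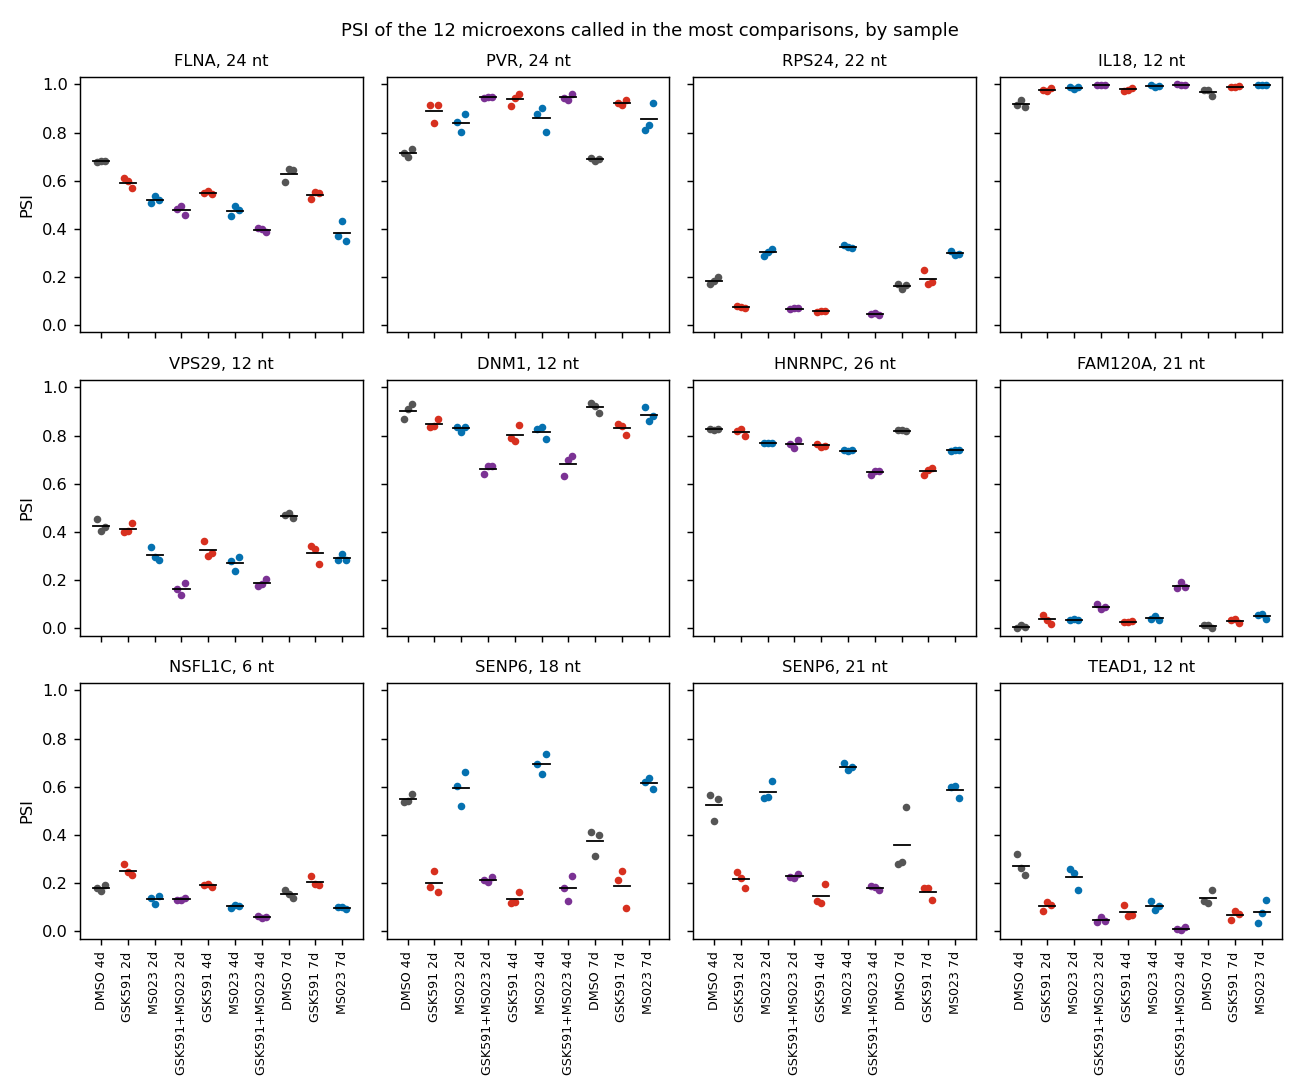
Ψ (PSI, from 0 to 1) in every library of the 12 microexons called in the most comparisons, with 3 points and a bar at the mean for each of the 10 groups. Gray is DMSO, red GSK591, blue MS023, and purple co-treatment. For TEAD1 the co-treatment points at 4 days lie at 0.00606 to 0.0184, below all others, and for both SENP6 exons all points of GSK591 and co-treatment lie below those of MS023.

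The microexons of ULK3, SENP6, MLLT4, and SNX14 had lower inclusion with GSK591 and co-treatment at 2 and 4 days, and GSK591 also lay below MS023 in the direct comparison. ULK3 is a kinase of the ULK family, and its 22 nt exon (chr15:75130493-75130514, minus strand) is coding and shifts the reading frame. Its Ψ was 0.937, 0.822, and 1.0 in 4-day DMSO, from 36 to 44 reads per library. It was 0.262, 0.222, and 0.261 with GSK591 at 2 days and 0.186, 0.195, and 0.289 with co-treatment, from 59 to 107 reads. With MS023 it was 0.907, 0.976, and 0.942. GSK591 was thus far below both DMSO (ΔΨ = -0.671, adjusted p = 1.87e-11) and MS023 (-0.693, adjusted p = 1.28e-15), and the change with co-treatment at 4 days, -0.742, was the largest of any microexon called with at least 20 reads in every library. After 7 days GSK591 was at 0.495 ± 0.0280 against 0.731 ± 0.0714 in DMSO, which did not pass the test (adjusted p = 0.0511). MS023 was at 0.959 ± 0.0360 then, a call that was lost without MS023 library b (adjusted p = 0.186) or DMSO library a or b. The library at a Ψ of 1.0 in DMSO had 38 inclusion reads, which allows a Ψ as low as 0.917.

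SENP6 removes SUMO from proteins, and its pair of overlapping exons is coding and in frame. For the 18 nt form Ψ was 0.537, 0.543, and 0.571 in 4-day DMSO. It was 0.118, 0.124, and 0.163 with GSK591 at 4 days, 0.694, 0.655, and 0.735 with MS023, and 0.181, 0.127, and 0.232 with co-treatment. GSK591 and co-treatment lay below DMSO and MS023 above it, and the difference between GSK591 and MS023 was -0.559 (adjusted p = 1.81e-25, from 117 to 194 reads per library). The call against DMSO passed with GSK591 (ΔΨ = -0.415, adjusted p = 9.84e-14) and not with MS023 (0.144, adjusted p = 0.165). At 7 days both passed, in opposite directions, with -0.189 and 0.241, but the first was lost without GSK591 library c (adjusted p = 0.250) and the second without DMSO library b (0.0873), among others. The 21 nt form gave -0.379 with GSK591 (adjusted p = 3.27e-11) and 0.157 with MS023 at 4 days, and the latter did not pass (0.0985). Its calls at 7 days were also in opposite directions. The call with GSK591 was lost without DMSO library c (adjusted p = 0.287) and that with MS023 without DMSO library a (0.227), among others.

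MLLT4 encodes afadin, which ties nectins to the actin cytoskeleton, and its 21 nt exon is coding. Its Ψ was 0.399, 0.419, and 0.435 in 4-day DMSO and 0.458, 0.456, and 0.340 with MS023 at 4 days. With GSK591 at 4 days it was 0.0589, 0.0, and 0.0, and with co-treatment 0.0, 0.0, and 0.0441. The 4 libraries at 0 had 24 to 70 skipping reads, which allow a Ψ of up to 0.0987 in the shallowest and 0.0362 in the deepest. The exon was thus hardly detected under both treatments (adjusted p = 2.3e-06 and 9.64e-11). The 7-day DMSO libraries, at 0.171, 0.0935, and 0.0870, were lower than those of 4 days (adjusted p = 0.00258). At 7 days MS023 was at 0.496, 0.226, and 0.285, a call that was lost without MS023 library a (adjusted p = 0.452) or c or any DMSO library. The call with GSK591 at 2 days (ΔΨ = -0.282) was lost without GSK591 library b (0.0726).

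TEAD1 is a transcription factor of the Hippo pathway, and its 12 nt exon is coding. Its Ψ was 0.320, 0.263, and 0.235 in 4-day DMSO, 0.110, 0.0645, and 0.0682 with GSK591 at 4 days, 0.126, 0.0895, and 0.105 with MS023, and 0.0109, 0.00606, and 0.0184 with co-treatment. Both inhibitors lowered it at 4 days, and the difference between them did not pass the test (-0.0260, adjusted p = 0.352), while at 2 days GSK591 was lower than MS023 (-0.118, adjusted p = 0.00133). Co-treatment went below each inhibitor (adjusted p = 2.79e-07 and 3.2e-10 at 4 days). The 7-day DMSO libraries had already fallen to 0.139 ± 0.0286 (adjusted p = 0.000667 against 4 days), and the call with GSK591 at 7 days (ΔΨ = -0.0706) was lost without any 1 of the 6 libraries, with an adjusted p of up to 0.251.

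The 27 nt exon of SNX14 (chr6:86248556-86248582, minus strand), a sorting nexin of endosomes and lysosomes, went the same way on all days. Its Ψ was 0.395, 0.429, and 0.284 in 4-day DMSO, 0.0696, 0.0845, and 0.0789 with GSK591 at 4 days, and 0.366, 0.414, and 0.364 with MS023. At 7 days it was 0.0866, 0.109, and 0.143 with GSK591 against 0.360, 0.274, and 0.441 in DMSO (adjusted p = 2e-08). GSK591 and MS023 differed on each day (differences -0.195, -0.304, and -0.175). The 27 nt exon of CPNE7, a copine that binds lipids in the presence of calcium, was at 0.186, 0.154, and 0.197 with GSK591 at 7 days against 0.488, 0.492, and 0.498 in DMSO (ΔΨ = -0.314, adjusted p = 8.08e-05). Its call at 4 days (-0.227) was lost without DMSO library a (adjusted p = 0.0778) or GSK591 library b (0.0902). With co-treatment its ΔΨ was -0.12 and -0.107 at 2 and 4 days and did not pass the test (adjusted p = 0.259 and 0.368). The 9 nt exon of MTSS1L, which bends membranes at actin-rich edges, was called only at 7 days with GSK591, with 0.121, 0.157, and 0.147 against 0.365, 0.414, and 0.375 in DMSO (ΔΨ = -0.243, adjusted p = 9.34e-11). At 4 days its ΔΨ was -0.00504, and no test of the change between the days was made. With co-treatment it was 0.0578 and 0.0715 at 2 and 4 days, and neither passed (adjusted p = 0.294 and 0.163).

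Fewer microexons had higher inclusion with GSK591. The 27 nt exon of DPH7, a gene of diphthamide synthesis on elongation factor eEF2, rose from 0.287, 0.305, and 0.427 in 4-day DMSO to 0.832, 0.693, and 0.726 with GSK591 at 4 days and to 0.748, 0.764, and 0.786 with co-treatment at 2 days. The groups did not overlap (ΔΨ = 0.411 and 0.426), but only 27 to 62 reads per library lay on it in these groups. The call with GSK591 at 4 days was lost without GSK591 library a (adjusted p = 0.0525). That at 2 days was lost without DMSO library a or b or GSK591 library a or b (up to 0.110). That with co-treatment at 4 days was lost without co-treatment library c (0.050). At 7 days DMSO was at 0.603 ± 0.127 and GSK591 at 0.689 ± 0.0447, which did not pass the test.

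PAPSS2 makes the sulfate donor PAPS, and its 15 nt exon is a coding alternative. Its Ψ was 0.0925, 0.128, and 0.0822 in 4-day DMSO, 0.163, 0.218, and 0.217 with GSK591 at 4 days, and 0.275, 0.183, and 0.240 with MS023. With co-treatment it was 0.329, 0.352, and 0.468 at 2 days and 0.563, 0.658, and 0.616 at 4 days. Both single inhibitors were above DMSO at 4 days (ΔΨ = 0.0985 and 0.132), and co-treatment was above all of them (0.512, adjusted p = 4.34e-58 against DMSO, 1.02e-44 against GSK591, and 1.01e-28 against MS023). CPEB2, which controls the translation of bound mRNAs, had a 24 nt exon at 0.315, 0.210, and 0.139 in 4-day DMSO, 0.408, 0.511, and 0.383 with MS023 at 4 days, and 0.679, 0.697, and 0.638 with co-treatment. With GSK591 at 4 days it was at 0.295, 0.362, and 0.246, which overlapped DMSO and did not pass (ΔΨ = 0.08, adjusted p = 0.395). Its ΔΨ of 0.450 with co-treatment passed (adjusted p = 2.83e-12), and so did the differences from GSK591 (0.370) and from MS023 (0.237). The call with MS023 at 4 days was lost without DMSO library c (adjusted p = 0.213), among others. That at 7 days was lost without MS023 library a (0.0686). The call with co-treatment at 2 days was lost without co-treatment library b (0.0633).

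NTAN1, an amidase of protein N termini, had a 22 nt coding exon that shifts the reading frame. Its Ψ fell from 0.699, 0.682, and 0.642 in 4-day DMSO to 0.127, 0.244, and 0.213 with co-treatment at 4 days (ΔΨ = -0.480, adjusted p = 5.78e-07), from 37 to 63 reads per library. GSK591 and MS023 alone were at 0.531 ± 0.0761 and 0.611 ± 0.163 and were not called, and co-treatment differed from each (adjusted p = 0.00156 and 2.65e-06). Its call at 2 days (-0.280) was lost without any 1 of the 6 libraries, with an adjusted p of up to 0.143.

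Microexons called higher with MS023 included that of FMNL1, a formin, with 18 nt in a noncoding transcript of the annotation. Its Ψ was 0.234, 0.188, and 0.191 in 4-day DMSO and 0.421, 0.426, and 0.393 with MS023 at 4 days (ΔΨ = 0.209, adjusted p = 7.74e-08). With co-treatment it was 0.0642, 0.0574, and 0.0845 (-0.136, adjusted p = 2.36e-06), so MS023 alone lay above DMSO and co-treatment below it. GSK591 alone was at 0.151 ± 0.00885 and did not pass the test. The 26 nt exon of NECAB2, a calcium-binding protein (chr16:84014444-84014469, plus strand), was at 0.898, 0.913, and 0.870 with MS023 at 7 days and 0.691, 0.661, and 0.547 in DMSO, a call lost without DMSO library c (adjusted p = 0.183) or MS023 library b (0.0707). The 17 nt exon of HAVCR1, a cell surface receptor (chr5:156459865-156459881, minus strand), is not in the annotation. It was at 0.329, 0.428, and 0.542 with MS023 at 7 days and 0.190, 0.190, and 0.161 in DMSO, a call lost without MS023 library c (adjusted p = 0.121).

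For 11 microexons, both inhibitors were called against DMSO on the same day in opposite directions. These were chosen for that pattern, so their values are a description. The same count over all SE events was not made, so this number has no background beside it. Both SENP6 exons are among them and share the reads that skip them. The direct comparison of GSK591 with MS023, over all SE events listed for both, called 88 of 530 microexon events at 2 days (9.09% of all SE events tested), 120 of 561 at 4 days (13.2%), and 86 of 512 at 7 days (11.0%). GSK591 was the lower of the pair in 61, 85, and 63 of these. Among all SE events called it was lower in 3426 of 5150, 5003 of 7565, and 3220 of 5621. GSK591 was thus the higher in 30.7%, 29.2%, and 26.7% of the called microexon events, against 33.5%, 33.9%, and 42.7% of all. At 2 and 4 days the split was near that of all SE events. Without MS023 library a the count of called microexon events at 7 days was 56. With events kept that had no read of 1 form, the counts were 43, 77, and 41.

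MYO5A, a myosin motor that carries vesicles along actin, had a 9 nt exon (chr15:52641015-52641023, minus strand) with opposite calls on all 3 days. At 4 days Ψ was 0.700, 0.675, and 0.838 in DMSO, 0.456, 0.658, and 0.556 with GSK591, and 0.911, 0.896, and 0.952 with MS023. GSK591 lay below DMSO and MS023 above it, with no overlap, and co-treatment, at 0.642, 0.638, and 0.620, lay within the range of GSK591. The call with MS023 at 4 days (ΔΨ = 0.182, adjusted p = 1.36e-05) held with each library left out. The other calls with 1 inhibitor did not, with an adjusted p of 0.20 with GSK591 at 4 days without GSK591 library a, 0.111 at 2 days without DMSO library c, and 0.294 at 7 days without GSK591 library c. With MS023 it was 0.248 at 2 days without DMSO library b and 0.192 at 7 days without MS023 library b. Each of these lost calls was also lost without at least 1 other library.

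RPS24, a ribosomal protein of the small subunit, had a 22 nt exon (chr10:79799962-79799983, plus strand) that the annotation places outside the coding region or in a UTR. It carried 2856 to 8069 reads per library. Its Ψ was 0.172, 0.184, and 0.199 in 4-day DMSO, 0.0543, 0.0609, and 0.0610 with GSK591 at 4 days, 0.335, 0.323, and 0.321 with MS023, and 0.0459, 0.0492, and 0.0412 with co-treatment. GSK591 and co-treatment lay below DMSO and MS023 above it, and the difference between co-treatment and GSK591 did not pass the test (-0.0133, adjusted p = 0.0768). After 7 days GSK591 was at 0.229, 0.170, and 0.179 against 0.170, 0.150, and 0.166 in DMSO, slightly higher, a call that was lost without DMSO library a, b, or c or GSK591 library a (adjusted p up to 0.444). The exon overlaps another microexon, so reads of the pair may not be independent.

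NT5C2, a nucleotidase of the cytosol, had a 24 nt exon (chr10:104865115-104865138, minus strand) at 0.273, 0.254, and 0.206 in 4-day DMSO, 0.144, 0.131, and 0.137 with GSK591 at 4 days, and 0.478, 0.489, and 0.471 with MS023. With co-treatment it was 0.279, 0.274, and 0.211, which overlapped DMSO (ΔΨ = 0.0100, adjusted p = 0.536) and differed from each inhibitor (0.117 and -0.225, adjusted p = 1.97e-14 and 4.92e-31). MYO18A, an unconventional myosin, had a 12 nt exon (chr17:27443462-27443473, minus strand) at 0.414, 0.437, and 0.391 in DMSO, 0.273, 0.311, and 0.238 with GSK591 at 4 days, and 0.705, 0.619, and 0.695 with MS023. Here co-treatment, at 0.626, 0.665, and 0.614, overlapped MS023 and lay above DMSO. The call with GSK591 was lost without GSK591 library c (adjusted p = 0.191), among others.

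ACACA makes malonyl-CoA for fatty acid synthesis, and its 24 nt exon (chr17:35567381-35567404, minus strand) was at 0.714, 0.697, and 0.703 in 4-day DMSO, 0.511, 0.453, and 0.394 with GSK591 at 4 days, and 0.820, 0.854, and 0.814 with MS023. Co-treatment lay between DMSO and GSK591, at 0.620, 0.616, and 0.582, a call that was lost without any 1 of the 6 libraries (adjusted p up to 0.129). That with MS023 was lost at 4 days without MS023 library b (0.0546) and at 7 days without any 1 of the 6 libraries (up to 0.346). ABI1, of the WAVE complex that starts actin branching, had a 15 nt exon (chr10:27060004-27060018, minus strand) at 0.0691, 0.0945, and 0.0946 in DMSO, 0.0187, 0.0480, and 0.0165 with GSK591 at 4 days, and 0.257, 0.206, and 0.174 with MS023. Its call with GSK591 was lost without GSK591 library c (adjusted p = 0.0876) or a (0.0601). The 12 nt exon of DNM2 (chr19:10919245-10919256, plus strand) was at 0.172, 0.190, and 0.177 in DMSO, 0.0819, 0.102, and 0.0968 with GSK591 at 4 days, and 0.334, 0.285, and 0.244 with MS023. Its call with MS023 was lost without MS023 library a (adjusted p = 0.0572).

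NSFL1C and DIAPH1 went the other way, with GSK591 above MS023. NSFL1C encodes p47, a cofactor of the ATPase p97, and its exon (chr20:1436359-1436364, minus strand) has only 6 nt. At 2 days its Ψ was 0.179, 0.168, and 0.194 in DMSO, 0.278, 0.246, and 0.233 with GSK591, and 0.139, 0.114, and 0.147 with MS023. With co-treatment it was 0.129, 0.132, and 0.137 at 2 days and 0.0621, 0.0538, and 0.0600 at 4 days, below MS023 alone at 4 days (adjusted p = 8.38e-05). The call with MS023 at 2 days was lost without DMSO library a or c or any MS023 library (adjusted p up to 0.346). That with co-treatment at 2 days was lost without DMSO library c or co-treatment library a or b (up to 0.0757). That with GSK591 at 7 days was lost without DMSO library b or c or GSK591 library a (up to 0.203). DIAPH1 is a formin that lengthens actin filaments, and its 27 nt exon (chr5:140967791-140967817, minus strand) was at 0.748, 0.704, and 0.733 in 7-day DMSO, 0.893, 0.862, and 0.827 with GSK591, and 0.545, 0.519, and 0.467 with MS023. At 4 days the ΔΨ with GSK591 was -0.00216 (adjusted p = 0.996) and MS023 was lower (-0.187, adjusted p = 3.07e-06). The call with GSK591 at 7 days was lost without GSK591 library a (0.0633).

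**Figure D5:**
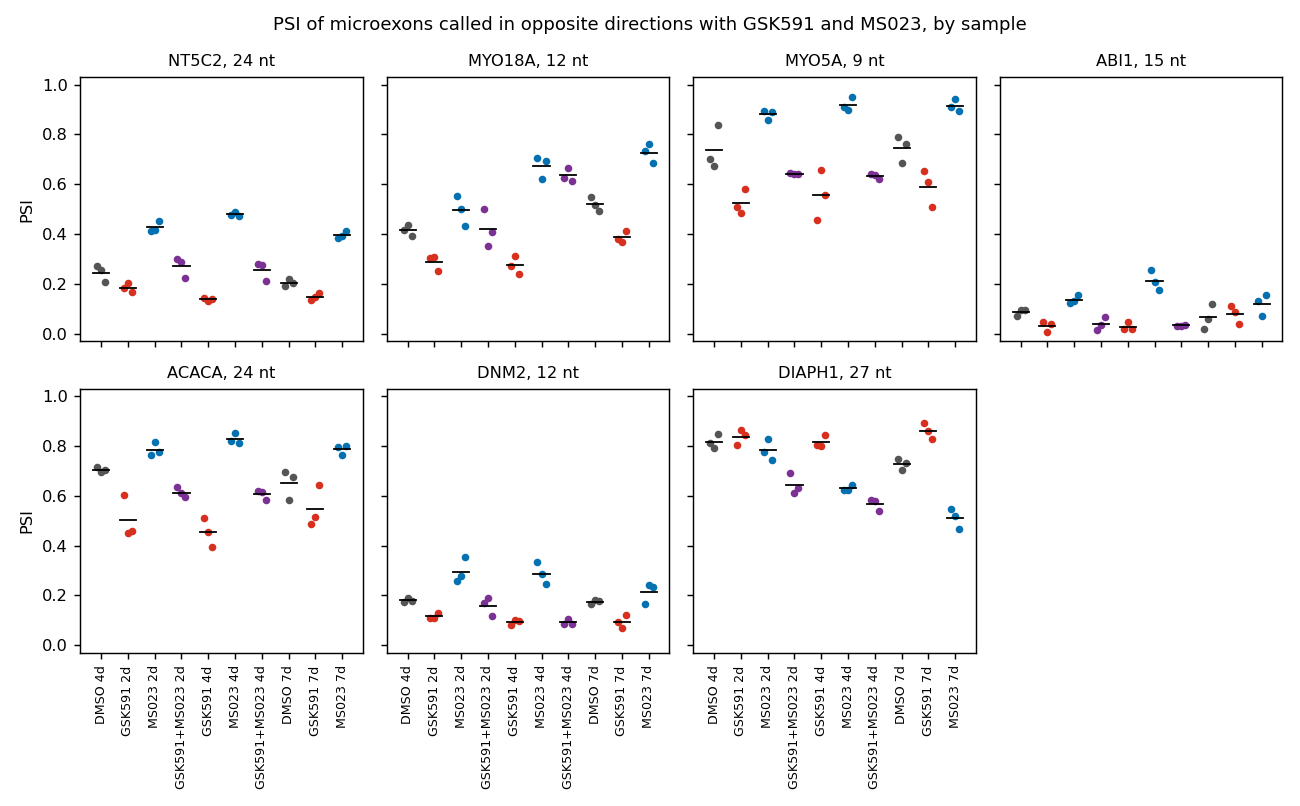
Ψ (PSI, from 0 to 1) in every library of 7 microexons called in opposite directions with GSK591 and MS023 on the same day, with 3 points and a bar at the mean for each of the 10 groups and the colors gray for DMSO, red for GSK591, blue for MS023, and purple for co-treatment. MS023 lies above GSK591 at 4 days in all panels except DIAPH1, where GSK591 is at 0.827 to 0.893 and MS023 at 0.467 to 0.545 at 7 days.

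Co-treatment was set directly against each inhibitor, in comparisons that were added after values had been seen. Against GSK591 38 of 528 microexon events were called at 2 days (background 3.42%) and 53 of 561 at 4 days (4.63%), with 19 and 27 of them higher with co-treatment. Against MS023 35 were higher and 69 lower of 532 at 2 days (10.3%), and 51 were higher and 98 lower of 562 at 4 days (13.5%). Of the microexon events called against MS023 33.7% and 34.2% were higher at 2 and 4 days, against 22% and 33.8% of all SE events called. Against GSK591 these shares were 50% and 50.9%, against 26.6% and 48.9%. At 4 days both splits were thus near those of all SE events. For ULK3, SENP6, SNX14, and MLLT4 the difference between co-treatment and GSK591 did not pass the test at either day, with values at 4 days of -0.128, 0.0446 for the 18 nt SENP6 exon, -0.0449, and -0.00494. For FLNA, VPS29, DNM1, TEAD1, FAM120A, and PAPSS2 co-treatment passed against both inhibitors at 2 and at 4 days.

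The host genes were grouped by lists of genes known for microexons. In these lists each exon was counted once, by its event with the most DMSO reads. The shares of all SE events and of the microexon events set beside them count every event, so the units differ. Of the cytoskeleton and motor list (45 genes), 19 genes had 37 microexons in the tables, of which 8 of 29 tested were called with co-treatment at 4 days (4 higher and 4 lower), 7 of 27 with GSK591 (2 higher), and 6 of 28 with MS023 (5 higher). In these comparisons 10.8%, 6.96%, and 1.89% of all SE events tested were called, and 21.6%, 13.9%, and 5.26% of the microexon events. Among them SPTAN1, which builds the spectrin net under the membrane, had an 18 nt exon that fell (ΔΨ = -0.410 with co-treatment at 4 days) and a 15 nt exon that rose (0.334). MACF1, a linker of microtubules and actin, rose in its 18 nt exon by 0.425, and the microtubule-binding CLASP1 was lower in its 24 nt exon (-0.253). The median ΔΨ of this list with co-treatment at 4 days was 0.000256, against -0.00188 over all SE events tested.

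Of the vesicle traffic list (44 genes), 14 genes had 18 microexons. At 4 days 6 of 11 tested were called with co-treatment (2 higher, median ΔΨ -0.0744), 4 of 12 with GSK591 (1 higher, median -0.00835), and 2 of 15 with MS023 (1 higher, median 0.00695). In these comparisons 10.8%, 6.96%, and 1.89% of all SE events tested were called, and 21.6%, 13.9%, and 5.26% of the microexon events. Besides DNM1 and DNM2 the genes called were PICALM, which helps clathrin coats form (0.0569 with co-treatment), HOOK2, an adaptor of dynein (0.177), and AP1G1, a subunit of the AP-1 adaptor (-0.157). Another AP-1 subunit, AP1B1, and AP2M1 of AP-2 are not in the list and were chosen after their values were seen. The 9 nt exon of AP1B1 was higher with co-treatment at 4 days (0.245) and with MS023 (0.177), and the 6 nt exon of AP2M1 was higher with co-treatment (0.134) and GSK591 (0.0923).

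In the adhesion list (37 genes), 17 genes had 25 microexons. Of 18 exons tested 4 were called with co-treatment at 4 days, all lower, beside 21.6% of all microexon events. They were MLLT4, PTPRS (-0.204) and PTPRF (-0.0216), both receptor phosphatases, and the cell adhesion molecule NRCAM (-0.0158). Of the kinase, GTPase, and signaling list (61 genes), 24 genes had 30 microexons, with 7 of 20 called with co-treatment at 4 days (3 higher), beside the same 21.6%. They included the 9 nt exon of PTK2, the focal adhesion kinase (0.192), MARK2 (0.170) and MARK3 (-0.199), which phosphorylate microtubule-associated proteins, and SRC (-0.0168). The median ΔΨ was -0.00247 in the adhesion list and 0.00167 in the signaling list. The transcription and chromatin list (43 genes) had 9 microexons, and its only call in the 8 comparisons was BAZ2B, of a chromatin reader (-0.144, with co-treatment at 4 days).

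Other microexons, chosen after their values were seen, belonged to genes of RNA processing, metabolism, and transport. The 27 nt exon of CPSF7, a cleavage factor of 3′ end processing, was lower by a ΔΨ of -0.348 with GSK591 and -0.400 with co-treatment at 2 days. The 12 nt exon of IDH3G, a subunit of isocitrate dehydrogenase, was lower with GSK591 on all 3 days (-0.152, -0.113, and -0.112) and with co-treatment (-0.248 at 4 days). SFXN4, of mitochondria, was lower in its 27 nt exon with GSK591 (-0.211 at 2 days). TEAD2 had a 12 nt exon that was higher with co-treatment (0.291 at 4 days), in contrast to the 12 nt exon of TEAD1. In VDAC3, a channel of the outer mitochondrial membrane, a 3 nt exon was higher with GSK591 on all days (0.0941, 0.126, and 0.150).

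Genes that regulate microexons also had events of their own, here counted over all exon lengths. The list had 28 genes. Events of 1 gene can share an exon and its reads, so the counts below are not of separate exons. The events were also not matched to all SE events for read number. SRRM4, RBFOX1, and NOVA2 had no SE event in the tables, and ESRP1 and ESRP2 had at most 2 reads per group. With GSK591 at 2 days 24 of 221 tested events in these genes were called (22 lower), where 4.36% of all SE events were called (3.63% lower), and 31 of 213 at 4 days (23 lower), beside 6.96% (5.43% lower). With MS023 at 4 days 8 of 215 were called (5 lower), beside 1.89% (1.27% lower), and with co-treatment 44 of 227 (32 lower), beside 10.8% (7.98% lower). A 36 nt exon of MBNL1, an RNA-binding protein of muscle and other tissues, was lower by a ΔΨ of -0.320 with GSK591 and -0.457 with co-treatment at 4 days. A 67 nt exon of U2AF1, which binds the 3′ splice site, was lower by -0.314 with GSK591 at 4 days. A 78 nt exon of PTBP1 was lower with GSK591 (-0.111), MS023 (-0.0447), and co-treatment (-0.181) at 4 days, and a 42 nt exon of SRRM1 was higher with GSK591 (0.108), MS023 (0.249), and co-treatment (0.207). The part of these events in the changes of the microexons was not tested.

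The sequence around the microexons was described from GRCh37. Of the 932 exons, 98.1% had AG and GT ends and 98.5% were in the GENCODE annotation, while 1.06% of those on the plus strand showed such ends after a shift of 7 bases. C and T made up 68.0% of the 30 bases before a microexon, against 64.7% for longer exons, and the median intron before it had 1399 bases, against 1981. TGC, the core of the SRRM4 site, was read on the strand of the gene in those 30 bases in 45.3% of the 179 called exons and 45.9% of the 542 that were tested and never called (41.1% of longer exons). GCATG, the RBFOX motif, stood in the 100 bases after the exon in 12.8% and 9.96% of them (8.85% of longer exons). Of the exons printed above it was found after both SENP6 exons and that of FMNL1, and TGC was found before those of DPH7, FMNL1, and CPEB2. A match is a run of letters and no proof of binding.

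Base 3 of the intron after the exon was G in 26.2% of the microexons and 33.2% of longer exons. Among called microexons it was G in 28.6% of the 70 lower with GSK591 on any day and 7.14% of the 42 higher with GSK591. It was G in 33.3% of the 15 lower with MS023 and 11.6% of the 43 higher with MS023. Exons that were called had a median of 254 reads per library and those never called 105, so depth moved with the calls. The share of exons with a length that is a multiple of 3 was 68.2% among the called and 61.6% among the never called. These shares are given with no test, since the groups were formed from the calls and the exons are not replicates.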

How the data were processed

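Poly(A)-RNA of A549 cells was sequenced in 30 libraries. Per the labels and the study's methods, the authors trimmed reads with Trim Galore 0.6.5, aligned them to hg19 with STAR 2.4.2a, and counted splicing events with rMATS. The labels also name Picard 2.3.0 and deepTools 3.3.1. The release of rMATS and its annotation differ or are not given in the sources used here. The deposited tables hold, for each event, whole-number counts of inclusion and skipping reads of 3 libraries joined by commas, without normalization, and effective lengths of both forms. The columns of Ψ and of the authors' test (differences, p-values, FDR) were not used. That leaves 16 columns of per-sample Ψ unused. The control of the 7-day tables bears only a code and was inferred to be 7-day DMSO from the labels of the inhibitor samples in the same tables. SKaTER-seq and actinomycin D samples were not analysed here.

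Ψ and ΔΨ were computed from both counts in Python 3.11.15 (pandas 2.3.3, pysam 0.24.0, matplotlib 3.10.9). Tests were run in R 4.3.3. A quasi-binomial logistic model was fitted to every SE event with at least 10 reads in each library and a read of both forms. Its dispersion was moderated by squeezeVar of limma 3.58.1 with a trend on the log mean count of the rarer form (0.1 added), held at 1 or above, and tested by a two-sided F test with Benjamini-Hochberg adjustment over all SE events of a comparison. The trend was not part of the planned model and was added after simulated data without it had shown false calls. All events of both groups with the same coordinates entered the direct comparisons. The comparisons of co-treatment with each inhibitor were added after values were seen.

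The microexons and gene lists were chosen with earlier results of these data known. Described in full were the 12 exons called in the most comparisons (ties by ΔΨ, mean of at least 20 reads), the 3 called exons with the largest ΔΨ and at least 20 reads in each library per comparison, and exons called in opposite directions with both inhibitors on 1 day. Where an exon had several events, that with the most DMSO reads was used. Older gene symbols were matched through RefSeq. Alternatives were other read minimums, no floor, no trend, events without reads of 1 form, 1 event per exon, Ψ without effective lengths, medians, limma on log2 odds (0.5 added), and each library left out. Counts of 0 allow up to 3 reads, and such limits cover counting error only.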

Additional observations from a re-analysis of the deposited data

Results flagged for a closer look

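Some results were picked out because a microexon was called in opposite directions with GSK591 and MS023 against the same DMSO libraries. The inhibitors also differed when set directly against each other, with the dispersion moderated by limma. All values are mean Ψ with GSK591 minus mean Ψ with MS023, with 3 libraries in each group. The exons were chosen for this pattern, and the comparisons with DMSO share their controls.

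For the 9 nt exon of MYO5A the difference was -0.356 at 2 days (adjusted p = 1.89e-12), -0.363 at 4 days (1.03e-17), and -0.326 at 7 days (6.07e-10). For the 22 nt exon of RPS24 it was -0.228 at 2 days (adjusted p = 2.24e-158) and -0.267 at 4 days (4.8e-226). At 4 days it was -0.399 for the 12 nt exon of MYO18A (adjusted p = 5.48e-18), -0.377 for the 24 nt exon of ACACA (2.43e-26), and -0.342 for the 24 nt exon of NT5C2 (5.89e-74). In the same comparison it was -0.194 for the 12 nt exon of DNM2 (adjusted p = 3.56e-17) and -0.184 for the 15 nt exon of ABI1 (2.07e-18). At 7 days it was -0.422 for the 21 nt exon of SENP6 (adjusted p = 7.79e-10) and -0.430 for the 18 nt exon (4.29e-10), which share reads.

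The difference had the other sign for the 6 nt exon of NSFL1C, at 0.118 at 2 days (adjusted p = 4.44e-11) and 0.107 at 7 days (1.66e-15), and for the 27 nt exon of DIAPH1, at 0.350 at 7 days (6.98e-18). By limma on log2 odds, the differences of NSFL1C did not pass (adjusted p = 0.348 at 2 days and 0.218 at 7 days). Neither did those of RPS24 (0.0892) and MYO5A (0.0789) at 2 days and that of DNM2 (0.0847). The other differences listed here passed that test.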

How the results depend on the processing

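Counts of called microexon events changed most with the test. The shares of all SE events called under these alternatives are not given. With limma on log2 odds they were 0 (GSK591, 2 days), 0 (MS023, 2 days), 39 (co-treatment, 2 days), 14 (GSK591, 4 days), 0 (MS023, 4 days), 69 (co-treatment, 4 days), 2 (GSK591, 7 days), and 0 (MS023, 7 days), 1, 41, and 13 for GSK591 against MS023 at 2, 4, and 7 days, and 0 for DMSO, where 45 had an unadjusted p under 0.05. Without the trend in the dispersion, which is the model as planned (the trend was chosen after seeing the data, on simulated counts), 85, 39, 65, 105, and 75 were called with GSK591 at 2 days, MS023 at 2 and 4 days, and GSK591 and MS023 at 7 days, and 25 between the DMSO groups. With events kept that lacked reads of 1 form, 43, 77, and 41 were called between GSK591 and MS023, and 0 between the DMSO groups, where 51 had an unadjusted p under 0.05. A minimum of 1 or 20 reads, no floor on the dispersion, and 1 event per exon kept every count within 1.5 times.

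Leaving out 1 library gave 37 to 46 (GSK591, 2 days), 9 to 15 (MS023, 2 days), 75 to 91 (co-treatment, 2 days), 65 to 82 (GSK591, 4 days), 29 to 31 (MS023, 4 days), 94 to 130 (co-treatment, 4 days), 30 to 44 (GSK591, 7 days), 27 to 34 (MS023, 7 days), 59 to 76, 82 to 106, and 56 to 85 (GSK591 against MS023 at 2, 4, and 7 days), and 1 to 8 (DMSO). Of the 159 calls against DMSO of the exons described in full, 112 passed with any library left out, 47 were lost with at least 1 left out, and 21 passed with limma on log2 odds. None changed direction. Ψ without effective lengths moved 12 of them by more than the spread between replicates. A planned count test by edgeR was not run. No paired analysis was possible because the columns carry no replicate numbers. Of all microexons, 211 met the criteria for testing, the read minimum and a read of both forms, in no comparison.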
